A study of Homo sapiens with 21 samples.

Results

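PC-9 lung cancer cells were compared with NL20 bronchial epithelial cells for their circular RNAs. The comparison used 6 of the 21 libraries in the study, 3 from each line, and covered the 9175 circRNAs, of 124082 in the table, that passed a filter on low counts. NL20 is an immortalized, nontumorigenic human bronchial epithelial line that serves as the normal lung control. PC-9 is a lung adenocarcinoma line labelled EGFR mutant. The PC-9 libraries used here carry no resistance code, and the labels give neither line a drug or a plasmid. Both lines were grown in RPMI with fetal bovine serum. Levels are also given for PC-9 cells made resistant to gefitinib, an EGFR kinase inhibitor, and kept in 1 µM of it, and for NCI-H1975, another EGFR-mutant lung cancer line. NCI-H1975 was sequenced untransfected, as osimertinib-resistant cells kept in 1 µM of that inhibitor, and after transfection with pCMV6 or FASN under 50 µg/ml G418, with 3 libraries in each of these groups. Each line stands as a model of 1 tumour or 1 bronchial epithelium, so the line and its condition, cancer or normal, cannot be told apart.

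Circular RNAs form when the spliceosome joins the end of an exon to the start of the same or an upstream exon, a reaction called back-splicing. They have no free ends, resist exonucleases and tend to be long-lived. Their level depends on transcription of the host gene, on the choice between back-splicing and linear splicing, and on turnover, and many are known for being made in some cell types and not in others. The table numbers the circRNAs in the order of the first library that held a read of them, and this order held for all 124082. It gives them no host gene or position, so neither host genes nor epithelial markers could be measured and no sequence is shown. For that reason 4 circRNAs are named and the others are described by class.

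The NL20 libraries held 175638, 203079 and 157660 reads and the PC-9 libraries 131329, 192666 and 106266, for 536377 and 430261 reads in all. From 73.6% to 75.4% of a library's reads fell on circRNAs that passed the filter. No library was a copy of another, since counts differed between libraries of a line by a chi-square of 2.10 to 2.66 per degree of freedom. The Spearman correlation of levels across the tested circRNAs, which are not independent replicates, had a median of 0.77 for an NL20 library with the others of its line, 0.67 to 0.69 for a PC-9 library and 0.41 to 0.43 between the lines. Nothing in the labels ties the 3 libraries of a line to separate cultures, and p-values then measure only a spread between libraries, which may be technical. In the main fit that spread was estimated over all 21 libraries of the 7 groups, so the p-values rest in large part on groups other than NL20 and PC-9.

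Reads of 74342 circRNAs were found in the 6 libraries, and most of these were seen in 1 of the lines alone. There were 24776 (33.3%) read in both lines, 29512 in NL20 alone and 20054 in PC-9 alone, while 21776 (29.3%) had a single read. These counts are not at equal depth, since NL20 had 536377 reads in all and PC-9 430261. The circRNAs not read in the other line took similar shares of the reads, 14.4% ± 0.200 in NL20 (mean ± SD, n = 3) and 14.9% ± 0.201 in PC-9. Among the circRNAs tested, 8331 were read in both lines, 419 in PC-9 and not NL20, 323 in NL20 and not PC-9, and 102 in neither, having passed the filter through other groups.

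The lines differed in 16.8% of the circRNAs tested, in nearly even numbers in both directions. edgeR's quasi-likelihood test, with p-values adjusted by the Benjamini-Hochberg method over all circRNAs tested, called 1539 at an adjusted p under 0.05. PC-9 had higher levels of 828 (9.02% of those tested) and lower levels of 711 (7.75%). Levels are relative to the reads of each library and scaled between libraries, so a near balance of directions is partly built in. Higher calls made up 52.9% to 58.2% of calls over the alternative settings. Before adjustment, 2651 passed 0.05. The levels of the lines did not overlap between libraries for 1466 of the called circRNAs, and for 35.9% of all circRNAs tested. The share called depends on which circRNAs are tested. A fit of the 6 libraries alone, filtered on those libraries, called 1742 of 5736, and a test of all 124082 without the filter called 679, of which 678 were among the 1539. Simulated data had these totals, with the means of NL20 and PC-9 pooled before changes were set in 200 of the 9175 circRNAs. Among circRNAs averaging 5 reads or more, 48% of 4-fold and 5% of 2-fold changes were recovered, so changes of modest size can be missed. The simulation held fewer changes than the 1539 calls, and the adjustment is stricter when fewer change. These shares therefore do not measure the recovery in the data.

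**Figure D1:**
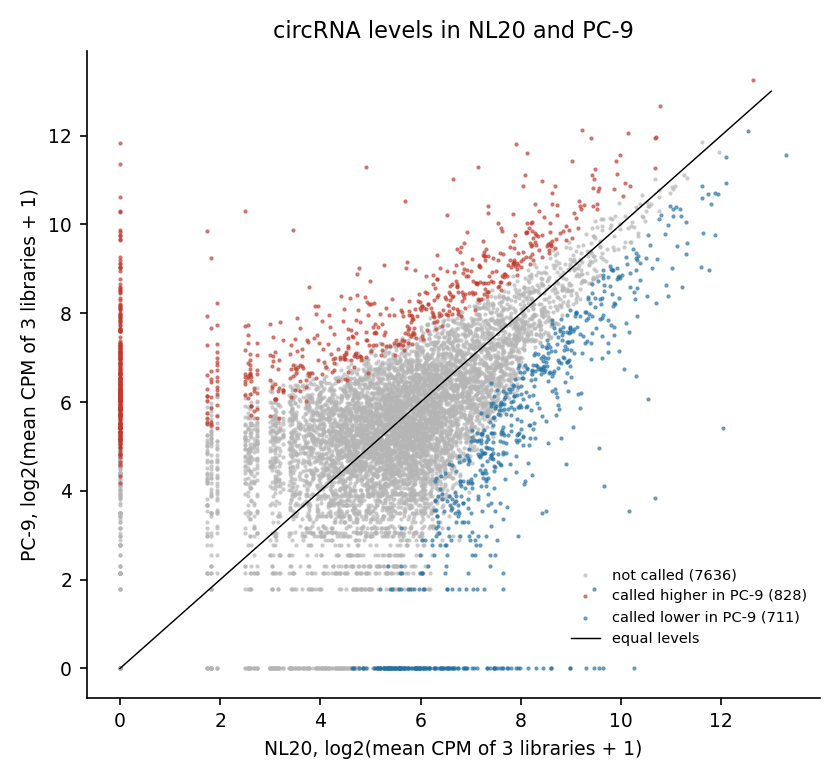
Level of each of the 9175 tested circRNAs in NL20 (horizontal) and PC-9 (vertical), as log2 of the mean of 3 libraries in counts per 1000000 (CPM) plus 1. Points are circRNAs, coloured by the call, and the line marks equal levels. The 828 higher calls lie above the line and the 711 lower ones under it, and the points on the axes had no read in 1 of the lines.

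Among circRNAs that NL20 lacked, hsa_circ_104535 had the most reads in PC-9. It had 300, 567 and 306 reads in the PC-9 libraries and 0 in each NL20 library. Every PC-9 library was high, while NL20 was empty by the rule that chose this circRNA. In counts per 1000000 reads of the tested circRNAs after scaling (CPM), it stood at 3624 ± 520 in PC-9 (SD, n = 3), the rank of 10 among the tested circRNAs of that line. A floor of 3 counts over the NL20 libraries makes it at least 483-fold higher (adjusted p = 3.36e-127, quasi-likelihood test of edgeR). Gefitinib-resistant PC-9 cells had 945 reads of it, at 3557 ± 459 CPM, a level within the spread of the PC-9 libraries. None of the 12 NCI-H1975 libraries had a read of it, so in these data it was read in the PC-9 line alone.

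hsa_circ_10547 was also higher in PC-9, but it was read in every library of both lines. By the rule that chose it, it had the smallest p among such higher calls. NL20 libraries held 4, 2 and 5 reads and PC-9 libraries 258, 327 and 208. The levels were 28.9 ± 14.4 CPM in NL20 and 2508 ± 142 CPM in PC-9 (SD, n = 3), without overlap. The log2 change was 6.42 ± 0.29 (SE), an 85.5-fold difference (edgeR quasi-likelihood test, adjusted p = 7.44e-102). The remaining groups lay well above NL20 too. Gefitinib-resistant PC-9 cells had 4218 ± 445 CPM, with each of their libraries above each PC-9 library, and NCI-H1975 cells had 865 ± 96.4 CPM. Plasmid-transfected NCI-H1975 cells stood at 819 ± 95.8 CPM with pCMV6 and 656 ± 97.4 CPM with FASN, and osimertinib-resistant cells at 402 ± 37.4 CPM. In the order of levels, NCI-H1975 and pCMV6 cells overlapped, as did pCMV6 and FASN cells, and NL20 was the lowest group.

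Among circRNAs absent from PC-9, hsa_circ_20528 had the most reads in NL20. The NL20 libraries held 148, 193 and 141 reads and each PC-9 library 0. Its level in NL20 was 1221 ± 117 CPM (SD, n = 3), and in PC-9 it was at least 129.9-fold lower against a floor of 3 counts (edgeR quasi-likelihood test, adjusted p = 2.43e-34). Gefitinib-resistant PC-9 cells had no read of it either, so it was missing from all 6 libraries of the PC-9 line. NCI-H1975 cells did hold it, at lower levels than NL20. They had 74.4 ± 34.1 CPM, osimertinib-resistant cells 182.6 ± 65.1, FASN cells 64.0 ± 16.0 and pCMV6 cells 25.9 ± 25.8, with 1 pCMV6 library at 0. The highest NCI-H1975-derived library, at 252.6 CPM, lay under the lowest NL20 library, at 1116 CPM.

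hsa_circ_64888 had the smallest p among lower circRNAs that were read in all 6 libraries. NL20 libraries held 481, 627 and 534 reads, which gave 4184 ± 492 CPM (SD, n = 3) and the rank of 6 in that line. PC-9 libraries held 3, 3 and 6 reads, or 41.4 ± 26.4 CPM. The log2 change was -6.72 ± 0.35 (SE), a 105.8-fold difference (edgeR quasi-likelihood test, adjusted p = 6.53e-78). Outside these groups it was nearly absent, with 0 reads in gefitinib-resistant PC-9 cells and 1 read over the 12 NCI-H1975 libraries, in an osimertinib-resistant one. The 12 reads in PC-9 and that 1 read were all the reads of it outside NL20. A search made after these values were seen found 5 circRNAs with at least 100 reads in NL20 and at most 1 in the 15 libraries of the other groups, and 4 of them had no read in PC-9. The reverse search, over the 12 NCI-H1975 libraries, found 15 circRNAs with at least 100 reads in PC-9 and at most 1 in those libraries. Of these, 12 had no read in NL20, and the highest NL20 count among the other 3 was 997.

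**Figure D2:**
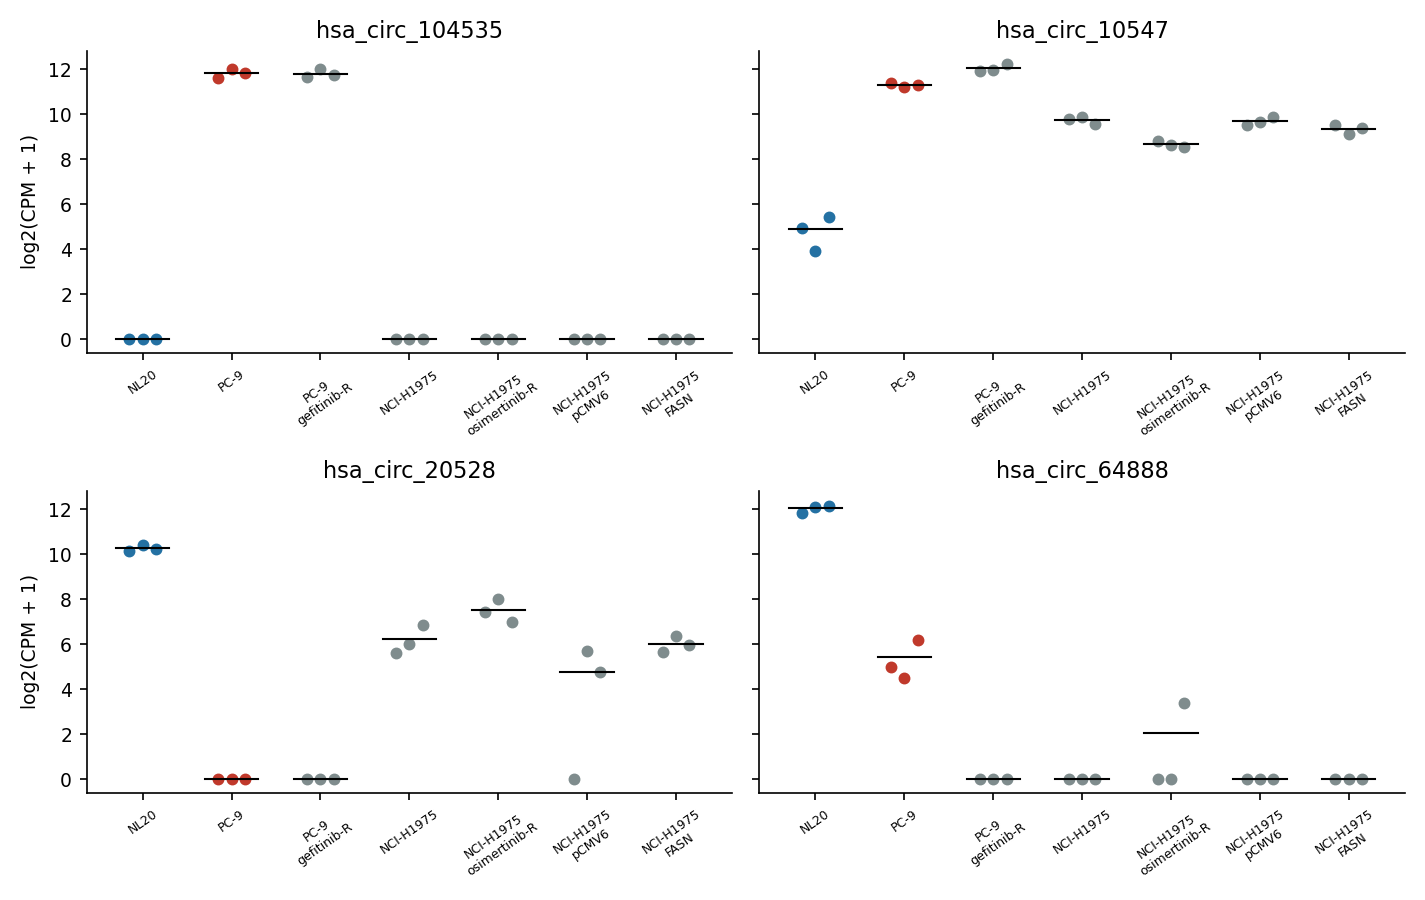
Levels of the 4 named circRNAs in all 21 libraries, as log2(CPM + 1) by group, with PC-9 in red, NL20 in blue and bars at the log2 of the group mean plus 1 (R, resistant). hsa_circ_104535 appears in the PC-9 line alone, hsa_circ_10547 is lowest in NL20, hsa_circ_20528 is missing from the PC-9 line, and hsa_circ_64888 is high in NL20 alone.

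Many calls were of circRNAs read in 1 line and not in the other. Of the 828 higher circRNAs, 295 (35.6%) had no read in NL20, and of the 711 lower ones, 155 (21.8%) had none in PC-9. The higher ones had 7 to 1173 reads over the PC-9 libraries, with a median of 25. Their lower bounds of the fold ran from 2.89 to 483, with a median of 10.3, and 149 of them reached 10-fold, 44 reached 30-fold and 11 reached 100-fold. The lower ones had 9 to 482 reads in NL20, with a median of 24. Their bounds ran from 2.43 to 129.9, with a median of 6.47, and 44 reached 10-fold, 11 reached 30-fold and 1 reached 100-fold. PC-9 libraries held fewer reads in all than NL20 libraries, so the floor of 3 counts came to 9.43 CPM in PC-9, against 7.63 CPM in NL20. No read in a line means no detection at this depth, and the floors cover counting error only, since PCR copies without molecular identifiers are not independent molecules. With all libraries thinned to the same depth, the called circRNAs without a read numbered 176 and 77, with a minimum count of 10 they numbered 134 and 62, without the filter 154 and 62, and in the fit of the 6 libraries alone 170 and 86.

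Other calls were of circRNAs that both lines made. Of 5054 circRNAs read in each of the 6 libraries, 379 (7.50%) were higher and 393 (7.78%) lower in PC-9, near or under the 9.02% and 7.75% over all circRNAs tested. By comparison, the calls made up 70.4% of the 419 tested circRNAs without a read in NL20 and 48.0% of the 323 without one in PC-9, classes that the compared counts themselves define. Higher calls had a median log2 change of 1.84 and lower calls one of -1.75. Fold changes of 2 to 4 made up 405 of the 772 calls, those of 4 to 8 made up 245, and 60 lay under 2-fold. Changes of 8-fold or more made up 62, of which 39 were higher and 23 lower. A remaining class of 3277 circRNAs, read in both lines but not in every library, gave 154 higher (4.70%) and 163 lower (4.97%) calls, under the shares over all circRNAs tested.

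The most abundant circRNAs differed more often in the test than the rare ones. In 4 bins of equal size ordered by mean level over the 6 libraries, 6.80%, 10.2%, 14.5% and 35.6% were called, from the lowest bin to the highest. The median circRNA of these bins had 2, 4.33, 7.67 and 21.7 reads per library. The 95% interval of a log2 change had a median half-width of 2.72 in the lowest bin and 0.95 in the highest, so a change of the same size is harder to call among rare circRNAs. In the top bin 417 were higher and 400 lower. Of the 100 most abundant by that mean, 34 were higher and 36 lower, beside 9.02% and 7.75% of all circRNAs tested.

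**Figure D3:**
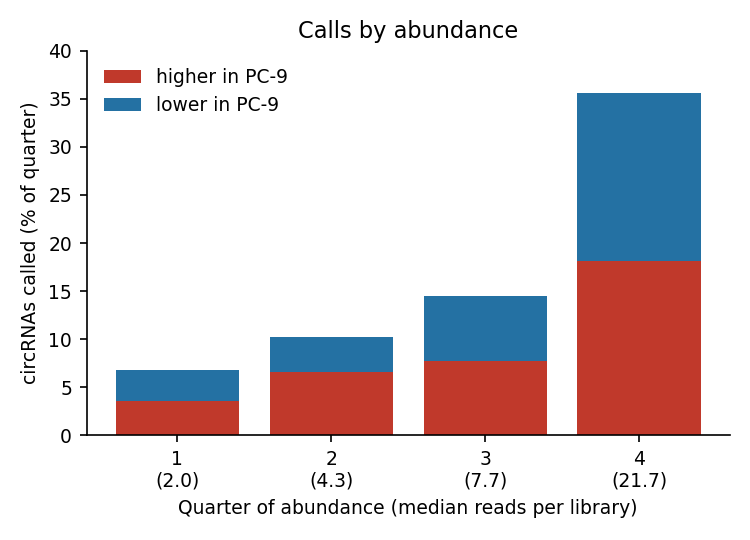
Share of circRNAs called in each of 4 equal bins of mean level, as a percentage of the bin, stacked by direction. Numbers in brackets are the median reads per library of the bin. The share rises from 6.80% in the lowest bin to 35.6% in the highest, with both directions present in each.

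The leading circRNAs of the lines overlapped in part. The 100 most abundant of NL20 and of PC-9 shared 46, which is 46% of each list, and 24 of the shared ones were called. In the NL20 list, 62 were lower and 7 higher in PC-9, and 1 had no PC-9 read. The PC-9 list held 58 higher and 17 lower, and 5 had no NL20 read. The lists took 15.3% of the reads in NL20 and 15.2% in PC-9, while the NL20 list took 9.92% of PC-9 reads and the PC-9 list 10.6% of NL20 reads. These lists were chosen by the levels compared, so their counts are a description. Over all circRNAs tested 16.8% were called, and 35.6% in the most abundant of the 4 bins. The most abundant circRNA of each line was singled out after its values were seen. That of NL20 had 1361, 1437 and 1179 reads there and 272, 495 and 224 in PC-9, where its rank was 15. Its share of the reads was 0.743% ± 0.034 in NL20 and 0.225% ± 0.028 in PC-9, a log2 change of -1.74 ± 0.12 (SE, edgeR quasi-likelihood test, adjusted p = 1.12e-42). The most abundant of PC-9 was the second of NL20, with 839, 863 and 791 reads in NL20 and 1032, 1460 and 664 in PC-9. Its share was 0.468% ± 0.039 in NL20 and 0.723% ± 0.086 in PC-9, a log2 change of 0.61 ± 0.14 (SE, edgeR quasi-likelihood test, adjusted p = 0.000142), and without the filter its adjusted p was 0.261.

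Called circRNAs held a large part of the reads. Those called higher in PC-9 took 23.7% to 24.0% of the reads in PC-9 libraries and 5.93% to 6.08% in NL20 libraries. Those called lower took 22.4% to 23.0% of NL20 reads and 7.20% to 7.32% of PC-9 reads. Tested circRNAs that were not called took 45.2% ± 0.102 in NL20 and 43.7% ± 0.384 in PC-9 (SD, n = 3). The sets were chosen on these libraries, so the shares show how many reads the calls cover and test nothing. In a bulk library, a lower level in every cell and reads from fewer cells cannot be told apart, and a share of circular RNA reads does not give an amount per cell.

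**Figure D4:**
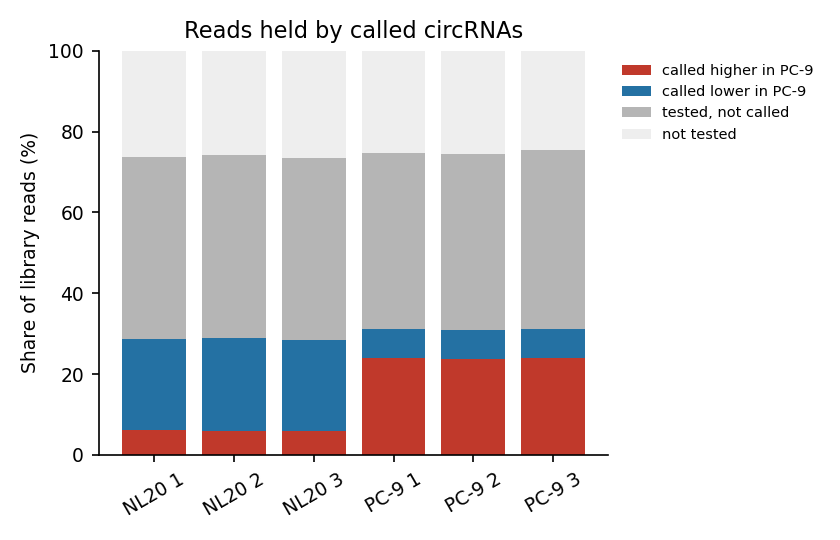
Share of the reads of each NL20 and PC-9 library, in percent, held by circRNAs called higher in PC-9 (red), called lower (blue), tested and not called (dark grey) and not tested (light grey). The higher set covers about 24.0% of PC-9 reads at most and the lower set about 23.0% of NL20 reads at most.

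Few circRNAs could be shown to be alike in the lines. For 247 circRNAs (2.69% of those tested), the 95% interval of the log2 change lay wholly within 2-fold in either direction, and 241 of these were not called. They were well counted, with a median of 51.7 reads per library, and 35 of them were among the 100 most abundant. Of the 7636 circRNAs not called, 7293 had an interval that allows a change of 2-fold or more.

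Reads were spread over somewhat fewer circRNAs in PC-9 libraries than in NL20 libraries, by a difference that 3 libraries against 3 cannot place under a p of 0.1. At an equal depth of 95808 reads, PC-9 showed 20625 ± 934 distinct circRNAs and NL20 22627 ± 497 (SD, n = 3, exact permutation p = 0.1). At that depth, 50% of the reads were held by 1535 ± 37.3 circRNAs in NL20 and 1452 ± 58.9 in PC-9 (SD, n = 3). The values were 1538, 1496 and 1570 in NL20 and 1491, 1481 and 1384 in PC-9. All PC-9 libraries lay under all NL20 libraries, by 5.05 circRNAs at the nearest. The permutation test, exact and two-sided, gave p = 0.1, which is the smallest it can give with 3 libraries against 3. Among tested circRNAs alone the difference shrank from -82.7 to -13.6 with an exact permutation p of 0.2.

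The calls were followed into the other groups. Those libraries took part in the filter and in the spread of the fit, so a circRNA with few reads in NL20 or PC-9 could be tested because another group read it. The shares below are therefore partly set by the filter, and they are given also for calls made with the filter and the fit on the 6 libraries alone. Over all 9175 circRNAs tested, 94.5% were read in gefitinib-resistant PC-9 cells, 96.1% in NCI-H1975 cells and 98.3% in some NCI-H1975 group. Of the 295 higher circRNAs without a read in NL20, 285 (96.6%) were read in gefitinib-resistant PC-9 cells, near the share over all tested. The median level of the 295 was 75.4 CPM there, beside 76.5 CPM in PC-9. NCI-H1975 cells held reads of 192 (65.1%), at a median of 9.60 CPM. Over all 12 libraries of that line 215 were read, which leaves 80 that were not. Of these 80, 79 were read in gefitinib-resistant PC-9, that is in both groups of the PC-9 line and in neither other line. The 80 could pass the filter only through libraries of the PC-9 line, so the filter partly sets this count. With the filter and fit on the 6 libraries alone, 170 such circRNAs were called. Of these, 168 (98.8%) were read in gefitinib-resistant PC-9 cells, 91 (53.5%) in NCI-H1975 cells, and 61 in no NCI-H1975 group. No share over all circRNAs tested in that fit is given, and the shares over the 9175 come from a filter that used the other groups.

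Of the 155 lower circRNAs without a read in PC-9, 70 (45.2%) had reads in gefitinib-resistant PC-9 cells, beside 94.5% of all circRNAs tested. The highest count was 15. For 113 of the 155 the resistant cells had at most 3 reads over 3 libraries. NCI-H1975 cells held 128 (82.6%) of the 155, beside 96.1% of all circRNAs tested. The median level of the 155 was 32.3 CPM there against 62.0 CPM in NL20, and 137 were read in some NCI-H1975 group. The remaining 18 were read in no library outside NL20. With the 6 libraries alone, 86 such circRNAs were called, with 20 (23.3%) read in gefitinib-resistant PC-9 cells and 52 (60.5%) in NCI-H1975 cells. These shares were much lower than the 45.2% and 82.6% of the main fit, and no share over all circRNAs of that fit is given beside them. Whether the shares read in NCI-H1975 differ between the higher and the lower circRNAs was not tested.

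The median level of each called set in NCI-H1975 cells lay between its medians in NL20 and PC-9, though single circRNAs such as hsa_circ_64888 did not. The median level of the 828 higher circRNAs was 11.0 CPM in NL20 and 166.9 CPM in PC-9. It was 138.6 CPM in the gefitinib-resistant cells and 51.4 CPM in NCI-H1975. For the 711 lower ones it was 193.4 CPM in NL20 and 30.4 CPM in PC-9, beside 48.6 CPM in the gefitinib-resistant cells and 105.5 CPM in NCI-H1975. The median over all circRNAs tested was 46.8, 45.3, 45.1 and 45.9 CPM in these groups. In NL20 and PC-9 these medians follow from the choice of the circRNAs, and a group near the median of all tested circRNAs then falls between them by that choice. NCI-H1975 cells were near their median of 45.9 CPM for the higher set, at 51.4 CPM. For the lower set they were above it, at 105.5 CPM. In the gefitinib-resistant libraries both medians lay closer to PC-9 than to NL20. For the higher set, 138.6 CPM was well above the 45.1 CPM of all tested circRNAs in those cells. For the lower set, 48.6 CPM was near that 45.1 CPM, so its closeness to PC-9 can follow from the choice alone.

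**Figure D5:**
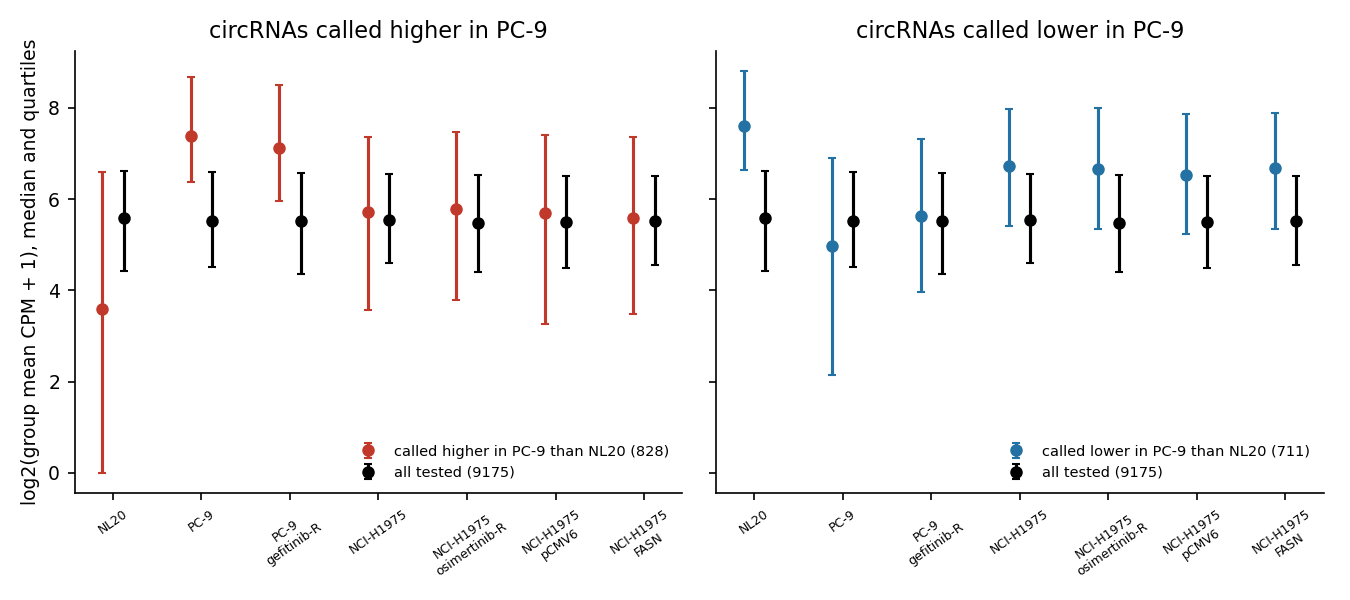
Median and quartiles, over circRNAs, of the group mean level as log2(CPM + 1), for circRNAs called higher (left, 828) and lower (right, 711) in PC-9 than NL20, beside all 9175 tested (black). NL20 and PC-9 values follow from the selection. The median of gefitinib-resistant (R) PC-9 cells lies near PC-9 on the left and near all tested on the right. The medians of the 4 NCI-H1975 groups lie between those of PC-9 and NL20.

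CircRNAs with consecutive numbers tended to be called alike. There were 3353 pairs of consecutive numbers in which both circRNAs were tested. After a circRNA called higher, the next number was called higher in 39.7% of 307 pairs and lower in 2.28%. After one called lower, the next was called lower in 27.4% of 292 pairs and higher in 3.08%. After one that was not called, 7.37% were higher and 7.55% lower. Since the numbers follow the first library that held a read, a circRNA missing from earlier groups shares that with its neighbours. Within the 7285 tested circRNAs numbered by the first library alone, a pCMV6 library, the shares were 35.1% of 271 pairs for higher and 26.5% of 279 for lower, beside 7.93% and 8.36% called higher and lower among all of these circRNAs. Among those numbered by later libraries other than the NL20 and PC-9 ones, 74.3% of 35 pairs after a higher call were higher and 0 of 6 after a lower call were lower. Of all 1754 tested circRNAs so numbered, 13.5% were called higher and 4.28% lower, and 6 pairs are too few to compare with that. There were 16 runs of at least 3 consecutive higher calls, the longest of 8, and 12 runs of lower calls, the longest of 4. How numbers were assigned within a library is not given in the sources used here.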

How the data were processed

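The deposited table holds raw read counts for each circRNA, as whole numbers. Per the submitters' processing notes the build was hg38 and the tools included HISAT2 and DESeq2, with no version or role. Per the labels' protocols, a sequencing provider purified the circular RNA and made the libraries. Which caller and filters defined the circRNAs is not given in the sources used here. All 21 columns were matched to samples by name. A low-count filter (filterByExpr of edgeR 4.0.16 in R 4.3.3, minimum count 5, minimum total 15) left 9175 circRNAs (7.39%). One quasi-likelihood model with TMM scaling, a mean for each of the 7 groups and robust estimation was fitted to all 21 libraries, so that the groups share one spread, and PC-9 was contrasted with NL20. The code was tested on simulated data, where every recovered change had the right direction and 0 of the unchanged circRNAs were called. The SE is the log2 change divided by the square root of its F statistic. Fitted folds of circRNAs without a read in a line are not given, because they depend on the prior count, and a bound against 3 counts replaces them. Evenness was measured after thinning each library to 95808 reads (mean of 100 draws) and tested with SciPy 1.17.1. In each direction the named circRNAs are the one with the most reads among calls without a read in the other line, and the one with the smallest p among calls read in all 6 libraries. Members, classes and rules were chosen with earlier results of these data known. Alternatives were DESeq2 1.42.0, other scaling, filters and sets of libraries, thinning and a replicate block.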

Additional observations from a re-analysis of the deposited data

How the results depend on the processing

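The counts of called, higher and lower circRNAs stayed within 1.5 times of 1539, 828 and 711 in 14 of 15 alternatives, and without the filter on low counts they were 679, 369 and 310. Leaving out 1 of the 6 libraries gave between 1138 and 1267 calls, 612 to 732 of them higher and 521 to 573 lower. DESeq2's Wald test called 1494, of which 1359 were among the 1539. Without osimertinib-resistant NCI-H1975 replicate 2, an alternative chosen after seeing the data, 1663 were called. Higher calls made up between 52.9% and 58.2% of all calls. The 4 named circRNAs kept their direction and their call in all 15 alternatives, with edgeR or DESeq2. They were chosen for the most reads or the smallest p, so this was likely from the start. Their adjusted p depended on the fit. In the edgeR quasi-likelihood fit of the 6 libraries alone it ran from 9.05e-24 to 1.99e-17, and with DESeq2's Wald test from 4.59e-45 to 1.84e-12. No pairing of libraries by replicate number was seen. The deviations of same-numbered NL20 and PC-9 libraries from their group means had correlations of -0.0163, -0.00588 and -0.0299, and no library correlated best with its own number. At these low counts and with 3 libraries a line, this check cannot exclude a shared batch. With the replicate block, 1437 circRNAs were called, 772 higher and 665 lower. The difference in the number of circRNAs that hold 50% of the reads was -82.7, -13.6 among tested circRNAs and -6.56 for 25% of the reads (exact permutation p = 0.4), and between -102.1 and -48.8 with 1 library left out. A tested circRNA had a median of 5.67 reads per library, which limits what could be called.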
